A study of Rattus norvegicus with 6 samples.

Results

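Complement is a cascade of blood and tissue proteins that marks cells and particles for removal and can punch pores in membranes. The genes described here are 9 of its components and regulators in cultured granulosa cells of the rat (Rattus norvegicus) ovary: C1r, C1s, C2, C3, Cfb, Cfi, Cd55, Cd59 and Serping1. They were found by matching the gene symbol, and all 9 had a row among the 17525 rows. Messenger RNA was measured in 3 libraries of a group called ATR, named ATR 1, ATR 2 and ATR 3 here. The 3 libraries of the group called Control are not analysed here, and none of the values given measures what an exposure did. Per the series' design text the cells came from SD rats (a strain) that were 21 days old and had received PMSG, a gonadotropin that stimulates follicle growth, at 60 IU, with the ovaries removed 48 h later, dispersed with an enzyme solution and cultured with serum. The series' title concerns atrazine, a herbicide, yet the labels do not spell out ATR and give neither a dose nor a duration. They do not say whether a library is 1 animal, a pool of animals or 1 culture, so the spread between libraries may be technical.

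In the classical pathway C1q binds a target, the protease C1r activates the protease C1s, and C1s cleaves C4 and C2. In the alternative pathway factor B (Cfb) joins with C3, and every route meets at the cleavage of C3. Host cells limit the cascade with the C1 inhibitor (Serping1), with factor I (Cfi), which cuts the active fragments of C3 and C4, with CD55 (decay accelerating factor), which takes C3 convertases apart, and with CD59, which stops assembly of the membrane pore. The liver makes most circulating complement, and many other tissues make some of their own. In the ovary complement proteins are known in follicular fluid.

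The 9 genes ranged from abundant to nearly silent. Cd59, C1r and C1s together held 453.8, 423 and 415 TPM (a level scaled for transcript length and depth) in ATR 1, ATR 2 and ATR 3, which was 87.4% to 94.3% of the TPM of all 9 genes. Cd55 and C2 followed. Serping1 stood near 1 TPM in ATR 1 and ATR 3 and was higher in ATR 2, and C3, Cfb and Cfi stayed below 1 TPM in every library. Of the 9 genes, 6 (66.7%) had a mean of 1 TPM or more and 2 (22.2%) one of 100 TPM or more, against 71.4% and 10.7% of all rows. The median of the 9 means was 5.32 TPM, beside 10.1 TPM over all rows.

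**Figure D1:**
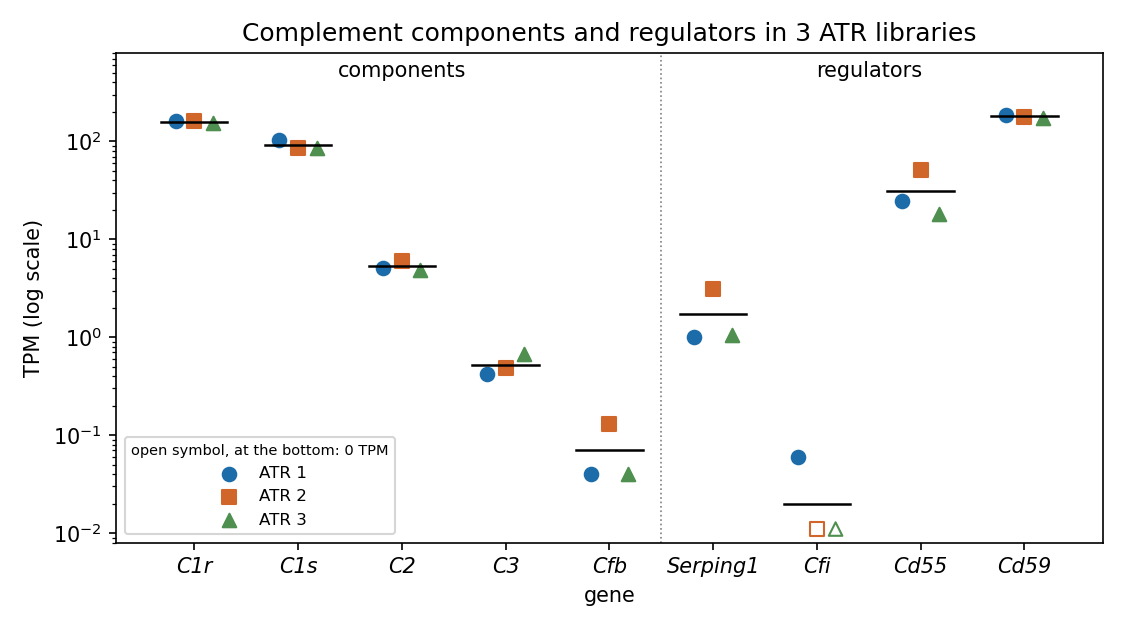
TPM of each of the 9 genes (log axis) in ATR 1, ATR 2 and ATR 3, with a bar at the mean and open symbols at the bottom for 0 TPM. C1r, C1s and Cd59 lie at 85.0 to 188 TPM, with C1s highest in ATR 1. Cd55 and Serping1 are highest in ATR 2, and C3, Cfb and Cfi lie below 1 TPM.

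The promoters of 3 members are shown because they mark the contrast within the group: C1r was abundant and even between libraries, Cd55 varied most, and C3, the protein at the centre of the cascade, was nearly silent. Each run covers 250 bases before to 50 bases after the start site, 5′ to 3′ on the gene's strand, from RefSeq on build GRCr8. The windows lie at chr4:159098763-159099062 (+ strand) for C1r, chr13:44438052-44438351 (- strand) for Cd55 and chr9:2201290-2201589 (- strand) for C3. Capitals mark GC boxes.
C1r: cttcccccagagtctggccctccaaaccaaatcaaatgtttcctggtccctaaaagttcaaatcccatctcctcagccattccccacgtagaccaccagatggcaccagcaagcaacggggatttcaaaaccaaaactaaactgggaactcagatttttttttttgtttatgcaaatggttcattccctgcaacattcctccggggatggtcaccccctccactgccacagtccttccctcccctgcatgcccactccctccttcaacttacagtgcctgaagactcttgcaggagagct
Cd55: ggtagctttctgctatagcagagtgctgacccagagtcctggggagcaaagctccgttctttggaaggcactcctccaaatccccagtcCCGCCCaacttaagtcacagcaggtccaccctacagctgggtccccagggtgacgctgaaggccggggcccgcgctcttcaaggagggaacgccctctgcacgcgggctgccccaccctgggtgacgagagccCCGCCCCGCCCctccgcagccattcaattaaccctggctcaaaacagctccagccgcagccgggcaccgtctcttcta
C3: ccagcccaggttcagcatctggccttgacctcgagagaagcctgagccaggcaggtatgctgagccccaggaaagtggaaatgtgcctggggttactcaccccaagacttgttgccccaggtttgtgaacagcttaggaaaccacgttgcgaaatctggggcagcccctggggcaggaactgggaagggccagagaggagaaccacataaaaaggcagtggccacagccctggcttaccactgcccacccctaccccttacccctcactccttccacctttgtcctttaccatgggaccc

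Of the 9 genes, 4 had such a window in the RefSeq table, the other being Cfi. The Cd55 window held 16 CpG dinucleotides and was 63.7% G or C. C1r and C3 held 3 CpG each, at 50.3% and 58.3% G or C, and Cfi held 9 at 45%, beside medians of 7 CpG and 51.7% over 33469 windows of the same length. The GC box (GGGCGG) was searched on both strands. It matched 3 times in Cd55, on the opposite strand, at -161 to -156, -28 to -23 and -23 to -18 from the start site, the last 2 matches sharing a base. It matched in none of the other 3 windows and in 33.1% of all windows. A TATA box (TATAAA, in 14.2% of all windows) was not matched in these 4 windows. Neither was a CCAAT box (CCAAT, in 37.5%). For interferon-type elements the ISRE core was searched as GAAANNGAA (in 9.71% of all windows) and the GAS element as TTCNNNGAA (in 8.87%), and for NF-kB its usual degenerate consensus (in 4.18%). None of these had a match in the 4 windows. A match is a run of letters and says nothing here about binding.

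C1r and C1s, the paired proteases of the first component, were the most abundant of the cascade's components among the 9. In ATR 1, ATR 2 and ATR 3 C1r stood at 162, 161 and 155 TPM, a mean of 159 ± 3.74 TPM (SD, n = 3), from 3833 to 3901 reads. Its libraries differed by 1.04 times at most, and 93.2% of all rows had a lower mean. C1s stood at 104, 86.6 and 85.0 TPM, a mean of 91.9 ± 10.6 TPM (SD, n = 3), with ATR 1 above the other libraries. The 2 genes are neighbours in the RefSeq table with no gene between them. C1r exceeded C1s in each library, by 1.55 times in ATR 1 (95% exact interval 1.48 to 1.63), 1.86 times in ATR 2 (1.76 to 1.96) and 1.82 times in ATR 3 (1.73 to 1.92). The interval of ATR 1 did not meet those of the other libraries, which overlapped each other. These intervals cover counting error only, and reads without molecular identifiers are not independent molecules.

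C2, another protein of the classical pathway and, beside C4, a substrate of C1s, was far lower. It stood at 5.04, 6.0 and 4.91 TPM in the 3 libraries, a mean of 5.32 ± 0.595 TPM (SD, n = 3), from 117, 140 and 117 reads. C1s exceeded it 14.4 to 20.7 times in TPM. C2 lay between the proteases above it and the factors below it in every library.

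C3 and Cfb were close to the limit of counting. C3 had 19, 22 and 32 reads, or 0.420, 0.480 and 0.680 TPM, a mean of 0.527 ± 0.136 TPM (SD, n = 3). C1r exceeded C3 by 385 times in ATR 1 (246 to 640), 335 times in ATR 2 (221 to 536) and 228 times in ATR 3 (161 to 333). Cfb, the alternative pathway's counterpart of C2 and its direct neighbour in the RefSeq table, had 1, 3 and 1 reads. With so few reads its libraries cannot be ranked. C2 exceeded Cfb by 46.2 times in ATR 2, with an interval of 15.5 to 227, and by 126 and 123 times in ATR 1 and ATR 3, where Cfb had a single read.

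Cd59 had the highest level of the 9 genes per transcript length. It stood at 188, 176 and 175 TPM, a mean of 179.7 ± 7.17 TPM (SD, n = 3), and 94.2% of all rows had a lower mean. Its gene identifier carries the symbol Cd59b in the RefSeq table, with Cd59 as a synonym. The counts of Cd59 (2505.6, 2355.8 and 2400.5 reads) and, by less than 1 read, of C1r are not whole numbers. Reads can therefore have been shared with other rows, and both levels carry that uncertainty. The other 7 genes have whole counts.

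Cd55, the second membrane regulator, differed most between libraries among the well-measured genes. The 3 libraries held 24.9 TPM (ATR 1), 51.1 TPM (ATR 2) and 18.4 TPM (ATR 3), from 396, 811 and 299 reads, with a mean of 31.4 ± 17.3 TPM (SD, n = 3). ATR 2 was above both other libraries and ATR 3 was the lowest. Cd59 exceeded Cd55 by 7.55 times in ATR 1 (6.79 to 8.42), by 3.44 times in ATR 2 (3.18 to 3.73) and by 9.55 times in ATR 3 (8.47 to 10.8), and none of the 3 intervals met.

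The soluble regulators among the 9 genes were low. Serping1, the inhibitor of C1r and C1s, stood at 1.01, 3.14 and 1.05 TPM, from 16, 50 and 17 reads, a mean of 1.73 ± 1.22 TPM (SD, n = 3). ATR 2 was about 3 times the other libraries, which lay next to each other. C1s exceeded Serping1 by 103 times in ATR 1 (63.4 to 181), 27.6 times in ATR 2 (20.8 to 37.3) and 81.0 times in ATR 3 (50.5 to 139). Cfi, the protease that inactivates C3 and C4 fragments, had 1 read in ATR 1 and none in ATR 2 and ATR 3. A count of 0 allows up to 3 reads, or 0.161 and 0.156 CPM (reads scaled to library size) in those 2 libraries.

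**Figure D2:**
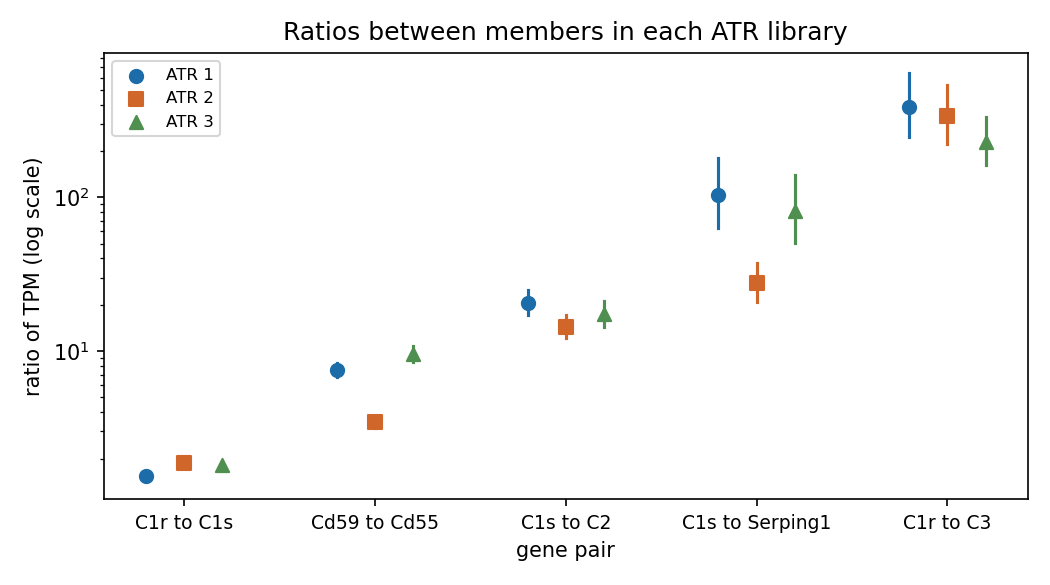
Ratio of TPM between 5 pairs of genes (log axis) in each library, with exact 95% intervals for counting error as vertical lines. C1r to C1s is lowest in ATR 1 (1.55), and Cd59 to Cd55 (3.44) and C1s to Serping1 (27.6) are lowest in ATR 2.

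By mean TPM the order was Cd59, C1r, C1s, Cd55, C2, Serping1, C3, Cfb and Cfi. Each gene exceeded the next in all 3 libraries and the ranges of neighbours did not overlap, with 1 exception. Cfb and Cfi overlapped, at 0.0400 to 0.130 TPM and 0 to 0.0600 TPM. Cd59 and C1r were the closest of the separated neighbours, with means 1.13 times apart, and both can have shared reads, as said above.

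Spread between the libraries beyond counting noise was found in Cd55, Serping1 and C1s. A chi-square test of the 3 read counts against library size, adjusted by the Benjamini-Hochberg method over 13309 genes with at least 30 reads in all, took 7 of the 9 genes and called 3 of them at 0.05. It called 23.2% of all genes tested, and 29.7% of those with at least 1000 reads, where 2 of 4 members were called. With so few genes the members' count is not read as different from those shares. The test compares these libraries and not conditions, and it takes counting noise as its only error.

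Cd55 was called with an adjusted p of 5.98e-65. Its scaled reads in ATR 2 were 2.75 times those in ATR 3 (95% interval 2.41 to 3.16), and 2.37 times those of the other 2 libraries pooled (2.14 to 2.63). Without ATR 2 it was still called, at an adjusted p of 0.00298, with a mean of 21.6 TPM. A mean of 5 CPM or more was held by 10506 genes, and 1.19% of these had a highest library at least 2 times the lowest. Among the 5 members at that level Cd55 was the 1 that did. Its SD on the log2(CPM + 0.5) scale was 0.74, and 0.695% of the other 10505 such genes had a larger one.

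Serping1 was called with an adjusted p of 1.12e-05, and its reads in ATR 2 were 3.18 times those in ATR 1 (1.78 to 5.98). The call rested on ATR 2: without it the adjusted p was 0.946 and the mean was 1.03 TPM. C1s was called with an adjusted p of 5.86e-10 on a small difference, its reads in ATR 1 being 1.19 times those in ATR 3 (1.13 to 1.26). Without ATR 1 its adjusted p was 0.869. Among 10505 genes at 5 CPM or more, with Cd55 left out, 16.4% had a larger SD than C1s. For C2, Cd59 and C1r those shares were 14.2%, 81.3% and 91.4%. C2 had 374 reads in all, and counting noise adds more to the SD of a gene with few reads. The 4 genes tested besides Cd55, Serping1 and C1s were not called: C3 (adjusted p 0.331), C2 (0.372), Cd59 (0.393) and C1r (0.545). For C3 the highest to lowest ratio of 1.69 had an interval of 0.927 to 3.15, which holds both no difference and one of 3 times. For C1r the interval of the same ratio was 0.988 to 1.08.

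**Figure D3:**
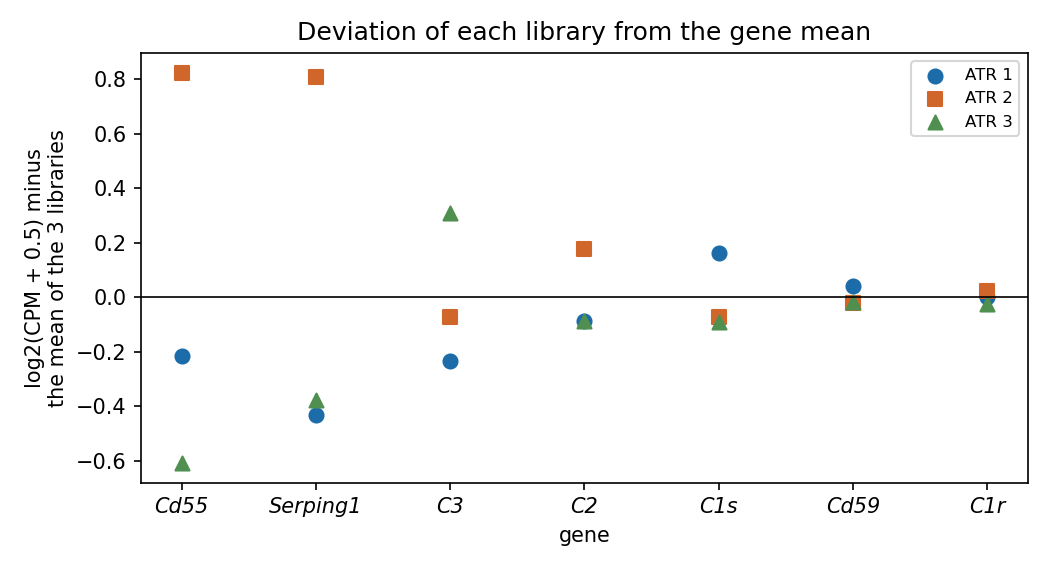
Difference of log2(CPM + 0.5) from the gene's mean in each library, for the 7 members at a mean of 1 CPM or more, ordered by spread. ATR 2 lies 0.82 above the mean for Cd55 and 0.81 for Serping1, ATR 1 lies 0.16 above it for C1s, and C1r and Cd59 lie within 0.05 of it.

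The library differences of Cd55 were compared with those of 10505 genes at 5 CPM or more, as the distance between log2 deviations from the gene mean over the 3 libraries. With 3 libraries this is a description and carries no test. The nearest were the chemokine gene Ccl2 (27.3, 52.8 and 19.8 TPM), LOC108348074, Olr1 (a receptor for oxidised low-density lipoprotein, at 9.43, 19.8 and 6.17 TPM), Cyp1a1 (a xenobiotic-metabolising cytochrome P450, at 6.14, 12.6 and 5.18 TPM) and LOC108352465. Of 16 acute phase and NF-kB target genes, 11 had a mean of at least 1 CPM and 10 of these were highest in ATR 2, where 33.9% of all genes at that level were. Ccl2, picked above for its likeness to Cd55, is among the 10. This list and those below were chosen with earlier results of these data known, so their counts are a description. The chi-square test took 12 of the 16 and called 6, beside 23.2% of all genes tested and 29.7% of those with at least 1000 reads. Among the 6 were the most abundant, Icam1 (51.8, 63.6 and 51.9 TPM) and Cxcl12 (34.95, 45.6 and 41.7 TPM). Others highest in ATR 2 were not called, such as Nfkbia (adjusted p 0.929) and Relb (0.149). The 16 summed to 202, 282 and 189.8 TPM. The 7 fibroblast and stroma markers summed to 3005, 3525 and 3460 TPM, and 6 of them were called, beside the same 23.2% of all genes tested. Of the 7, 4 were highest in ATR 2, beside 33.9% of all genes at 1 CPM or more. Col1a1 (2596, 3062 and 2997 TPM), which made most of the sums, was highest there. So were Thy1 (23.2, 104 and 82.65 TPM), Prrx1 (12.0, 47.0 and 29.2 TPM) and Pdgfra (1.36, 5.27 and 3.67 TPM), with larger differences. Col14a1 (333, 267 and 305 TPM) was lowest there, Dcn was highest in ATR 1 and Lum in ATR 3. Of 20 interferon-response genes 17 were highest in ATR 1, as C1s was, beside 34.2% of all genes at 1 CPM or more. All 20 were tested and 17 were called, beside 23.2% of all genes tested. Their sums were 1880, 1445 and 1437 TPM. The most abundant were Ifi27 (682, 492.5 and 513 TPM), highest in ATR 1, and B2m (529, 541 and 525 TPM), which was not called. These 2 made most of the sums. Less abundant genes differed more, such as Irf7 (45.15, 18.35 and 20.8 TPM), Mx2 (33.3, 7.76 and 5.82 TPM) and Rsad2 (2.45, 0.34 and 0.3 TPM), all called. The 3 highest in ATR 2 were B2m, Irf1 and Psmb8, and none of them was called. The part of these genes in the spread of Cd55, Serping1 and C1s was not tested. In bulk RNA fewer cells of a type and less RNA per cell cannot be told apart.

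**Figure D4:**
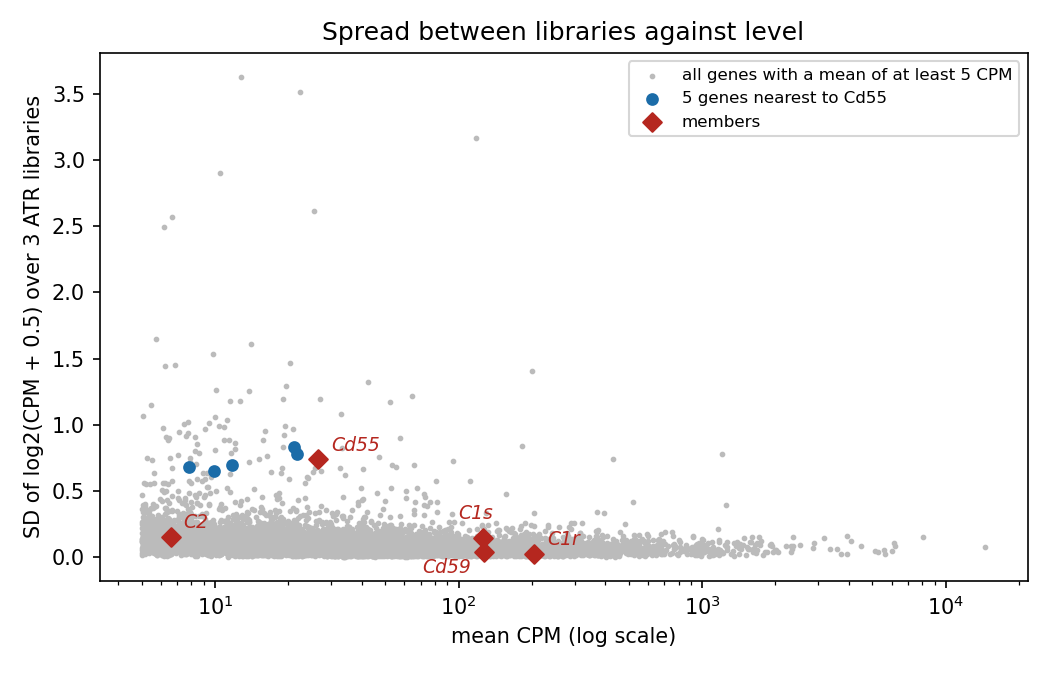
SD of log2(CPM + 0.5) over the 3 libraries against mean CPM (log axis) for genes at a mean of 5 CPM or more, with the 5 members at that level as diamonds and the 5 genes nearest to Cd55 as blue points. Cd55 lies at 0.74 among few genes, C2 at 0.15 and C1s at 0.14, and C1r and Cd59 lie at 0.02 and 0.04.

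The remaining complement genes showed a like range. Of 48 listed genes of the pathways, their regulators and receptors and the pentraxins, 39 were matched to a row, 20 reached a mean of 1 TPM and 7 reached 10 TPM. Larger shares of all rows reached these levels, 71.4% and 50.2%. The chi-square test took 25 of them and called 6: Masp1, Colec11, Clu, Cr1l, Susd4 and C1qbp. This share was near the 23.2% called among all genes tested.

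In the classical pathway the 3 chains of C1q, the recognition protein that C1r and C1s attach to, were low, with C1qa at 4.30 ± 0.948, C1qc at 4.26 ± 1.16 and C1qb at 2.61 ± 0.643 TPM (SD, n = 3). None of the 3 passed the test between libraries, with 74 (C1qb) to 115 (C1qc) reads in all. C4a and C4b, similar copies that can share reads, stood below 1 TPM in each library. The 5 genes therefore lay far under C1r and C1s, whose lowest library held 85.0 TPM.

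In the lectin pathway, which recognises sugars, Masp1 was the most abundant component gene measured. It stood at 264, 238 and 236 TPM, a mean of 246 ± 15.7 TPM (SD, n = 3), and exceeded C1s by 2.54 to 2.78 times. The RefSeq entry lists Masp3 among its synonyms, and the gene-level values do not separate the products of this gene. The collectin genes Colec11 and Colec12, with sugar-binding domains, stood at 42.5 ± 4.28 and 22.2 ± 1.496 TPM (SD, n = 3). Masp2, the protease that cleaves C4 in this pathway, had 1 read in ATR 3 and none elsewhere. Of 8 lectin pathway genes matched, 3 reached 1 TPM.

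The alternative and terminal pathways were low throughout. Properdin (Cfp) stood at 2.17 ± 0.378 TPM (SD, n = 3) and factor D (Cfd) had 6, 2 and 4 reads. Of 4 terminal genes matched, C8g reached 1 TPM, at 3.30 ± 0.436 TPM (SD, n = 3), whereas C5 and C6 had at most 13 reads in a library and C9 had 1 read in all.

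Regulators beside the 4 members were led by Clu (clusterin, a secreted chaperone that binds the terminal complex), at 410, 356 and 372 TPM, a mean of 379 ± 28.1 TPM (SD, n = 3). Clu exceeded Cd59 by 2.02 to 2.18 times. Cr1l, the rodent regulator also known as Crry, which shares the C3 convertase with Cd55 as its target, stood at 152, 135 and 146 TPM and exceeded Cd55 by 6.11 times in ATR 1, 2.64 times in ATR 2 and 7.96 times in ATR 3. It was highest in ATR 1 where Cd55 was highest in ATR 2. Susd4 stood at 9.79 ± 1.88 TPM and Cd46 at 2.75 ± 0.752 TPM (SD, n = 3). C4bpa and C4bpb had at most 4 reads in a library.

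Among the receptors C1qbp stood at 203 ± 11.5 TPM (SD, n = 3). It was first named for binding C1q, but its protein is mainly mitochondrial. The receptors of the anaphylatoxins, the small fragments of C3 and C5 that call leukocytes, were low: C5ar1 stood at 1.68 ± 0.445, C5ar2 at 1.44 ± 0.279 and C3ar1 at 0.663 ± 0.2003 TPM (SD, n = 3). The integrin chains of complement receptors 3 and 4, Itgb2, Itgam and Itgax, stood at 1.05 to 2.08 TPM. The pentraxin Ptx3, which binds C1q and belongs to the cumulus matrix, stood at 16.1 ± 1.35 TPM (SD, n = 3).

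**Figure D5:**
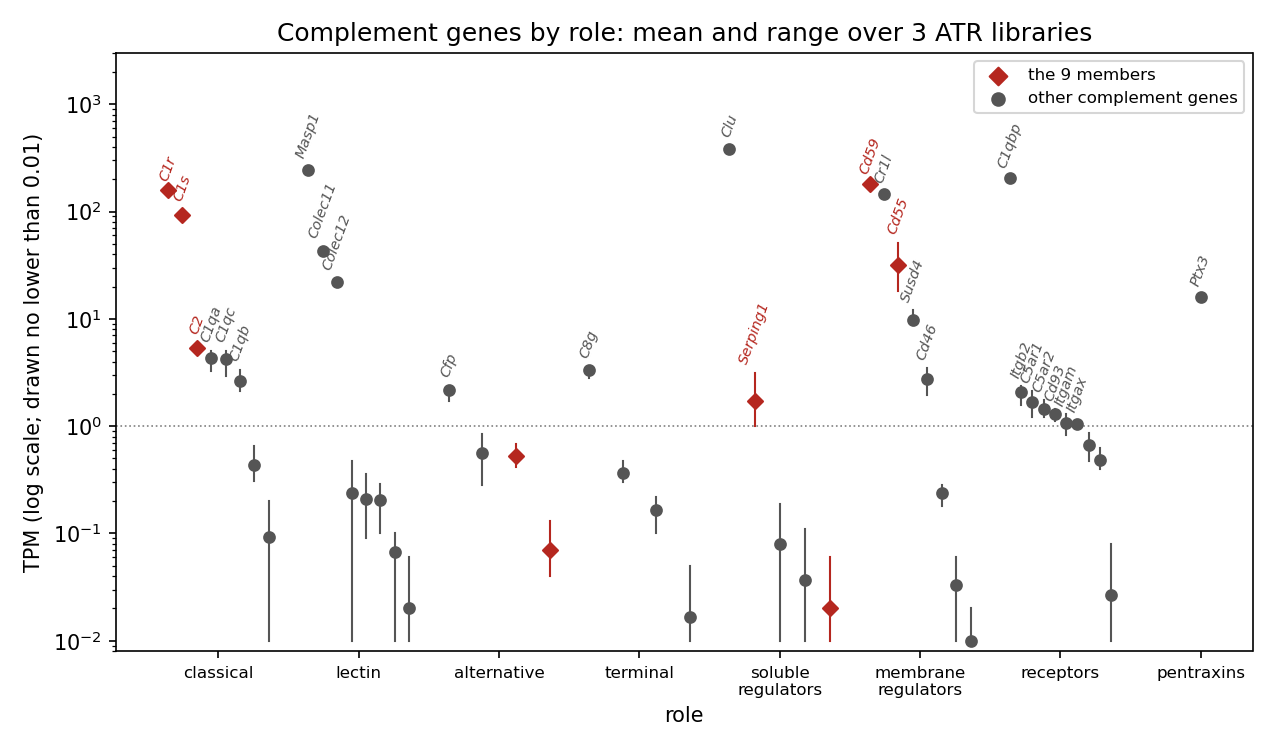
Mean TPM (points, log axis, drawn no lower than 0.01) and range over the 3 libraries (lines) of the complement genes by role, with the 9 members as diamonds and a dotted line at 1 TPM. C1r, C1s, Masp1, Clu, Cd59, Cr1l and C1qbp stand highest, and C3, Cfb and the terminal genes other than C8g lie below 1 TPM.

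Leukocytes make C1q and carry these receptors, so their markers are given beside them. Of 14 macrophage and leukocyte markers matched, the 3 C1q chains and Itgam among them, 11 reached 1 TPM and 1 reached 10 TPM (Cd68, at 12.7 ± 1.91 TPM, SD, n = 3). Over all rows 71.4% reached 1 TPM and 50.2% reached 10 TPM. They summed to 44.6, 49.8 and 50.3 TPM in the 3 libraries. None of the 13 tested was called, but they had only 40 (Aif1) to 401 (Cd68) reads in all. With so few reads a difference can be missed. For C1qc the ratio of ATR 2 to ATR 1, picked as its highest and lowest libraries, was 1.76 (1.06 to 2.97). Its adjusted p in the chi-square test was 0.141. Csf1r stood at 3.10 ± 0.240 TPM and Ptprc at 0.850 ± 0.147 TPM (SD, n = 3), and Cd163 had 1 read in all. Tyrobp stood at 8.83 ± 0.305 TPM (SD, n = 3). Of 5 endothelial markers matched 1 reached 1 TPM, Kdr at 3.28 ± 0.235 TPM (SD, n = 3), with 526 reads in all. Tek had 84 reads in all and Pecam1 had 0, 3 and 1, and the 5 summed to 4.53, 3.9 and 4.16 TPM. The part of leukocytes in the levels of C1q and the receptors was not tested.

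The label of granulosa cells was met in part. Of 14 granulosa markers matched, 7 (50%) reached a mean of 10 TPM and 4 (28.6%) reached 100 TPM, beside 50.2% and 10.7% of all rows. The share at 10 TPM was thus no higher than that of all rows. Those 4 were Gja1 (1906 ± 114 TPM), Inha (443 ± 73.0 TPM, SD, n = 3), Inhba (282 TPM) and Gata4 (189 TPM). Fst (65.9 TPM), Nr5a1 (60.9 TPM) and Foxl2 (55.1 ± 7.88 TPM) followed. Lower were Nr5a2 (6.55 TPM), Fshr (5.80 ± 1.39 TPM), Amhr2 (2.31 TPM) and Cyp11a1 (1.02 TPM). No library had over 2.33 estimated reads of Cyp19a1 or over 2 of Amh. Of 8 surface epithelium and mesothelium markers matched, 4 reached 100 TPM, led by Upk3b (1403 ± 101 TPM) and Krt8 (405 ± 28.0 TPM). Epcam (0.333 TPM) and Krt19 (0.137 TPM) of that list were low. Of 5 smooth muscle genes matched, 2 reached 100 TPM, Acta2 (5496 ± 311 TPM) and Cnn1 (183 ± 16.9 TPM, SD, n = 3). Des stood at 11.8 TPM and Notch3 at 1.34 TPM. Of 7 fibroblast and stroma markers matched, 6 reached 10 TPM and 2 reached 100 TPM, Col1a1 (2885 ± 252 TPM) and Col14a1 (301 ± 33.2 TPM, SD, n = 3). Pdgfra of that list stood at 3.43 TPM. In the theca list Ptch1 stood at 3.8 ± 0.269 TPM (SD, n = 3) and Cyp17a1 had no more than 3.63 reads. Lhcgr, on the theca and granulosa lists, had at most 5 reads. The libraries held 18677212 to 19170552 reads, and between libraries the log2(TPM + 1) values correlated across genes, not replicates, at 0.994 to 0.995.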

How the data were processed

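Poly(A) RNA libraries of rat granulosa cells were read as pairs of 150 bases, per the labels' protocols. The authors deposited TPM values and estimated counts of reads per gene, per the file headers. HISAT2 2.2.1, StringTie 2.1.5, fastp 0.20.1 and the builds Rnor_6.0 and GRCm38 stand in the submitters' processing notes with no roles, and the rule for sharing reads among genes is not given there. Estimated counts were rounded to whole numbers and library sizes scaled by TMM (edgeR 4.0.16, R 4.3.3). The 3 ATR counts of each gene with at least 30 reads in all were tested by chi-square against these sizes across all genes, with Benjamini-Hochberg adjustment at 0.05, after a check on simulated counts. The planned edgeR test of ATR against Control and its alternatives were not run, since the Control libraries are not analysed here. Ratios carry Clopper-Pearson 95% intervals. Where the highest library of a gene is set against its lowest or the rest, the intervals do not allow for that choice and are too narrow. Alternatives used library totals, DESeq2 1.42.0 size factors, no read minimum, whole counts alone, a pseudocount of 1, TPM for CPM, and each library left out.

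The members and gene lists were chosen with earlier results of these data known. Named genes were the 9 members, the highest 3 and all at 10 TPM or more of each complement list, the highest 2 of other lists, certain cell type markers, and the 5 genes nearest to the most variable member. Others were named after their values were seen, and 1 listed gene is not reported here. Listed symbols without a row were looked up by gene identifier in the RefSeq table of GRCr8. Counts called whole lie within 0.001 of a whole number. Python 3.11.15, numpy 2.4.6, pandas 2.3.3, scipy 1.17.1 and matplotlib 3.10.9 were used.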

Additional observations from a re-analysis of the deposited data

How the results depend on the processing

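No paired analysis was possible because 1 group, ATR, was analysed. The count of 3 called members (Cd55, Serping1 and C1s) was the same with library totals, with DESeq2 size factors, without a minimum of reads and among whole counts alone, and ranged from 2 to 3 with 1 library left out. The count over all genes, 3087, was 3063 to 3167 under the first 3 of these settings, 2125 among whole counts alone, and 1528 (without ATR 1), 1871 (without ATR 2) and 2230 (without ATR 3) with 2 libraries tested. With 1 library left out the mean TPM ranged from 21.6 to 37.98 for Cd55, 1.03 to 2.095 for Serping1, 0.04 to 0.085 for Cfb and 0 to 0.03 for Cfi. Ranks among all genes by CPM in place of TPM moved for 4 of 9 members, Cd59 from 1017 to 1612 and C1r from 1191 to 925. By CPM, which is not scaled for length, C1r (204.5) stood above Cd59 (127.7), which was level with C1s (126.5). At these depths Cfb and Cfi, with 5 reads and 1 read in all, cannot be ranked.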

Other observations

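The library in which Cd55 and Serping1 were highest, ATR 2, also held the highest levels of genes outside complement, chosen here after their values were seen. The row named Saal1, whose identifier has the RefSeq symbol Saa3 (an acute phase serum amyloid), had 12.03, 155 and 7 estimated reads in ATR 1, ATR 2 and ATR 3. The adhesion molecule gene Vcam1 had 2, 17 and 3 reads. The chemokine gene Ccl7 stood at 33.0, 47.3 and 15.1 TPM and the intermediate filament gene Des at 7.22, 20.4 and 7.69 TPM. The cause of these differences was not tested.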
